A study of Homo sapiens with 15 samples.

Results

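Epithelial chemokines were followed through a time course of interleukin-13 (IL-13) in A549 cells, a human lung adenocarcinoma line that the labels call bronchial. The set is 10 genes, CXCL1, CXCL2, CXCL3, CXCL5, CXCL8, CCL2, CCL20, CCL11, CCL24 and CX3CL1, taken by gene symbol. Every probe set of the Affymetrix human array (hgu133a) that carries one of these symbols alone was included, which gave 14 probe sets of 22283 and 10 genes of 11963. Untreated cells were collected at 0 h, IL-13 treated cells at 4 h, 12 h and 24 h, and cells without stated treatment at 24 h, with 3 arrays in each of the 5 groups. The labels state neither the IL-13 dose nor whether the 3 arrays of a group came from separate cultures, so the p-values measure the spread between arrays, which may be technical. No untreated arrays at 4 h or 12 h were among the 15, so IL-13 and time in culture cannot be told apart in the comparisons of those times with 0 h. The comparisons between IL-13 times, and of IL-13 24 h with 0 h, also hold more time in culture. The comparisons with control 0 h share those 3 arrays, and the IL-13 12 h arrays serve both against 0 h and against IL-13 24 h. The control 24 h arrays serve both against IL-13 24 h and against 0 h, so opposite signs in those comparisons are not independent.

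Chemokines are small secreted proteins that bind receptors on leukocytes and draw them along a gradient. CXCL1, CXCL2, CXCL3, CXCL5 and CXCL8 carry the ELR motif before their first cysteines and attract neutrophils through CXCR2, CCL2 attracts monocytes through CCR2, CCL20 attracts CCR6-bearing dendritic cells and lymphocytes, and the eotaxins CCL11 and CCL24 attract eosinophils through CCR3. CX3CL1, or fractalkine, is made as a membrane-bound protein and released by the proteases ADAM10 and ADAM17. In airway epithelium the transcription factor NF-kB switches on many of the neutrophil attractants, and IL-13 signals mainly through STAT6.

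The 5 neutrophil attractants lie in a cluster on chromosome 4. On GRCh38.p14 the genes run from 73740569 to 73743716 for CXCL8, 73869393 to 73871308 for CXCL1, 73995642 to 73998677 for CXCL5, 74036589 to 74038689 for CXCL3 and 74097040 to 74099195 for CXCL2. Their promoters are shown because the results at 4 h, 12 h and 24 h of IL-13 turn mainly on these genes. The windows, from RefSeq on GRCh38.p14, hold 250 bases before and 50 from the gene start on, and are written 5′ to 3′ along each gene. They are chr4:73869143-73869442 on the plus strand for CXCL1, chr4:74099146-74099445 on the minus strand for CXCL2, chr4:74038640-74038939 on the minus strand for CXCL3, chr4:73998628-73998927 on the minus strand for CXCL5 and chr4:73740319-73740618 on the plus strand for CXCL8. Capitals mark letters that match GGNNTTTCC, part of the NF-kB binding motif.
CXCL1: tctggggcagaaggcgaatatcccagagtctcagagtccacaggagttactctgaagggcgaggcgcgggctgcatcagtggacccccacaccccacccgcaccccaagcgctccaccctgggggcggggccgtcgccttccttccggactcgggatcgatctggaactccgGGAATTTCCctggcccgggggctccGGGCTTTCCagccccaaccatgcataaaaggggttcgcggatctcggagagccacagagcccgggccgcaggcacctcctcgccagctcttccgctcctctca
CXCL2: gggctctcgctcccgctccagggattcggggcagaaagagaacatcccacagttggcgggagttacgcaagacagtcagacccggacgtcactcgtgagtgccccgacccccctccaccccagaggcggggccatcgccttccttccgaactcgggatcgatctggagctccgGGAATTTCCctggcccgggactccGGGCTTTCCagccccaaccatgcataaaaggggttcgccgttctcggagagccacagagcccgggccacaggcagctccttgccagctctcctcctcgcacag
CXCL3: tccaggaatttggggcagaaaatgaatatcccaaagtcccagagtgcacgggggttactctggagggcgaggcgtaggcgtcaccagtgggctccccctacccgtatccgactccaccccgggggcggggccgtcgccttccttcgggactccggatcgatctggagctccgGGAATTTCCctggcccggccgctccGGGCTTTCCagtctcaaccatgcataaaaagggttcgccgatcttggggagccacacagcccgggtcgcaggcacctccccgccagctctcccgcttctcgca
CXCL5: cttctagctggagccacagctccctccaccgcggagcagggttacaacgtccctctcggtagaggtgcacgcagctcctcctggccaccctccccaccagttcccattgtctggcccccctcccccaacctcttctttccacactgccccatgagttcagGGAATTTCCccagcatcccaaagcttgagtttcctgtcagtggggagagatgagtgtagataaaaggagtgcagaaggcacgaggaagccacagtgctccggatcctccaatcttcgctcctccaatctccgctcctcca
CXCL8: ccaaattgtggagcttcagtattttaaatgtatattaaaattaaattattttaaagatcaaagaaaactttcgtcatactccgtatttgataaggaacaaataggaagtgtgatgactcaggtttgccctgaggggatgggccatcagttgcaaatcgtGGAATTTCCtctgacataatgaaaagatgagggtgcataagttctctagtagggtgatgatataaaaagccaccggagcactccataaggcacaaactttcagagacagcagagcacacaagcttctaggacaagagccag

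All 5 windows hold the letters GGAATTTCC, at -78 to -70 of CXCL1 and CXCL3, -77 to -69 of CXCL2, -90 to -82 of CXCL5 and -91 to -83 of CXCL8, counted from the gene start as +1. A second match, GGGCTTTCC, lies at -53 to -45 of CXCL1, CXCL2 and CXCL3. Promoter windows were found for 7 of the 10 genes, with 2 windows for CCL24, and the member counts are of genes. GGNNTTTCC on either strand is in 6 of these 7 genes, against 6.26% of 35116 promoter windows of the same length. The window of CCL20 has it on the minus strand and those of CCL24 have none. The AP-1 motif TGANTCA is in the windows of CXCL8, at -137 to -131, and CCL24, which makes 2 of 7 against 7.71% of all windows. The STAT6 motif TTCNNNNGAA is in 0 of 7 against 6.44%, and the shorter STAT motif TTCNNNGAA is in 2 of 7, CXCL5 and CCL24, against 7.66%. In CXCL5 that match, at -95 to -87, overlaps the NF-kB letters. ATAAAA, the letters of a TATA-type box, is in 6 of 7 against 16%. It lies at -30 to -25 in CXCL1, CXCL2, CXCL3 and CXCL8, and at -31 to -26 in CXCL5. In CCL20 it lies on the minus strand at -115 to -110, away from where a TATA box lies. The CCL20 window also holds tataaata closer to the gene start, letters that a search for ATAAAA does not match. Both strands were searched for each motif, and a match shows letters only, not a bound site. The windows of CXCL1 and CXCL3 were identical at 82.5% of aligned positions, CXCL2 and CXCL3 at 73.7%, and CXCL1 and CXCL2 at 70.6%, while every other pair stood between 43.0% and 53.2%. The map of these windows shows the matches in a column before the start.

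**Figure D1:**
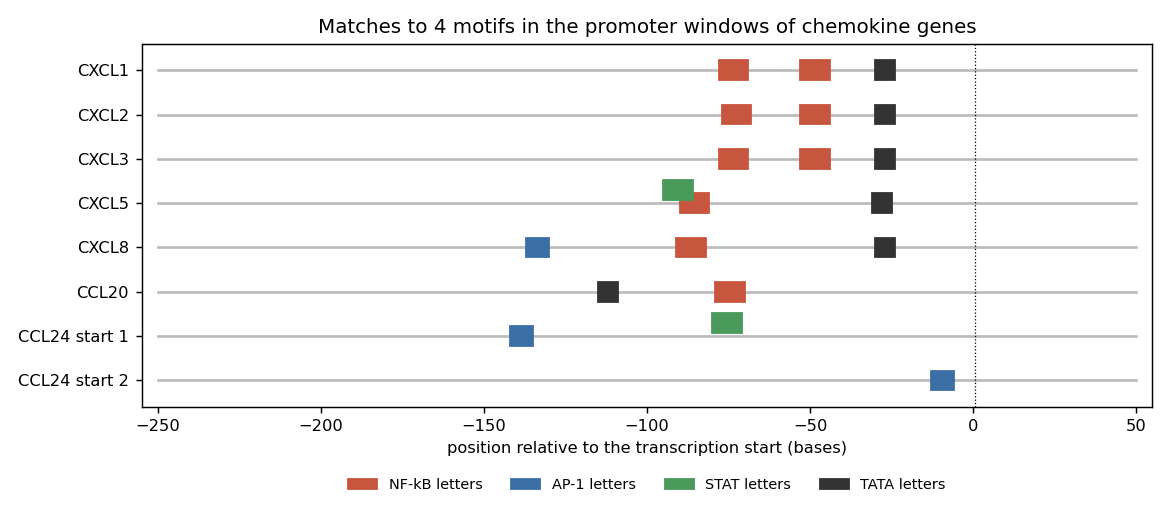
Positions of motif letters in the promoter windows, with distance from the gene start in bases on the x axis and 1 row per window. CCL24 has 2 windows. The NF-kB letters of the 5 neutrophil attractants sit between -91 and -45, and the TATA-type letters between -31 and -25.

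Signal was the deposited value per probe set on a linear scale, and the tests used log2(signal + 20) after quantile normalization, a scale that understates the change of dim probe sets. Differences are log2 with a standard error, folds are on the same scale, and an adjusted p (limma, Benjamini-Hochberg over 11107 probe sets) under 0.05 counted as passing. Of the 14 probe sets, 6 stood over the brightness filter (mean log2 6.33, a signal of 60.3): CXCL1, CXCL2, CCL2, 2 of the 3 of CXCL5, and 1 of the 2 of CXCL8. CXCL1, at a mean log2 of 6.332 against the filter's 6.328, was just over it. The 8 below it, of CXCL3, CXCL5, CXCL8, CCL20, CCL11, CCL24 and both of CX3CL1, were tested only with no filter, over 22215 probe sets. Whether the arrays of compared groups overlap is given for the members as a description. The share of all probe sets without overlap is not given, so a lack of overlap alone is not read as a change. The array median ran from 56.7 to 72.5 and the beta-actin 3′/5′ ratio from 0.930 to 1.24. That ratio averaged 1.001 ± 0.065 in control 0 h, 1.03 ± 0.078 in IL-13 4 h, 1.08 ± 0.049 in IL-13 12 h, 1.18 ± 0.081 in IL-13 24 h and 1.17 ± 0.066 in control 24 h (SD, n = 3). It moved with time, and its part in the results was not tested. Among marker genes, the epithelial KRT8, KRT18, KRT19 and CDH1 were over the filter and their list of 7 summed to 14196 to 19173. The surfactant gene SFTPC was the only one of 4 alveolar type 2 markers over it. Leukocyte, endothelial and fibroblast lists summed to 128 to 268, 72.0 to 115 and 62.9 to 158, with CD3E, PECAM1 and no gene over the filter.

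Over the 15 arrays, the CXCL5 signal ran from 343 to 836 on 214974_x_at and from 148 to 389 on 215101_s_at. CCL2 ran from 35.5 to 241, CXCL8 202859_x_at from 36.5 to 134, CXCL2 from 29.6 to 138 and CXCL1 from 40.6 to 119. These ranges describe each probe set alone, since probe sets differ in how strongly they hybridize. The probe sets whose names end in _x_at, among them the one of CXCL2, are of a kind that can also bind related transcripts.

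**Figure D2:**
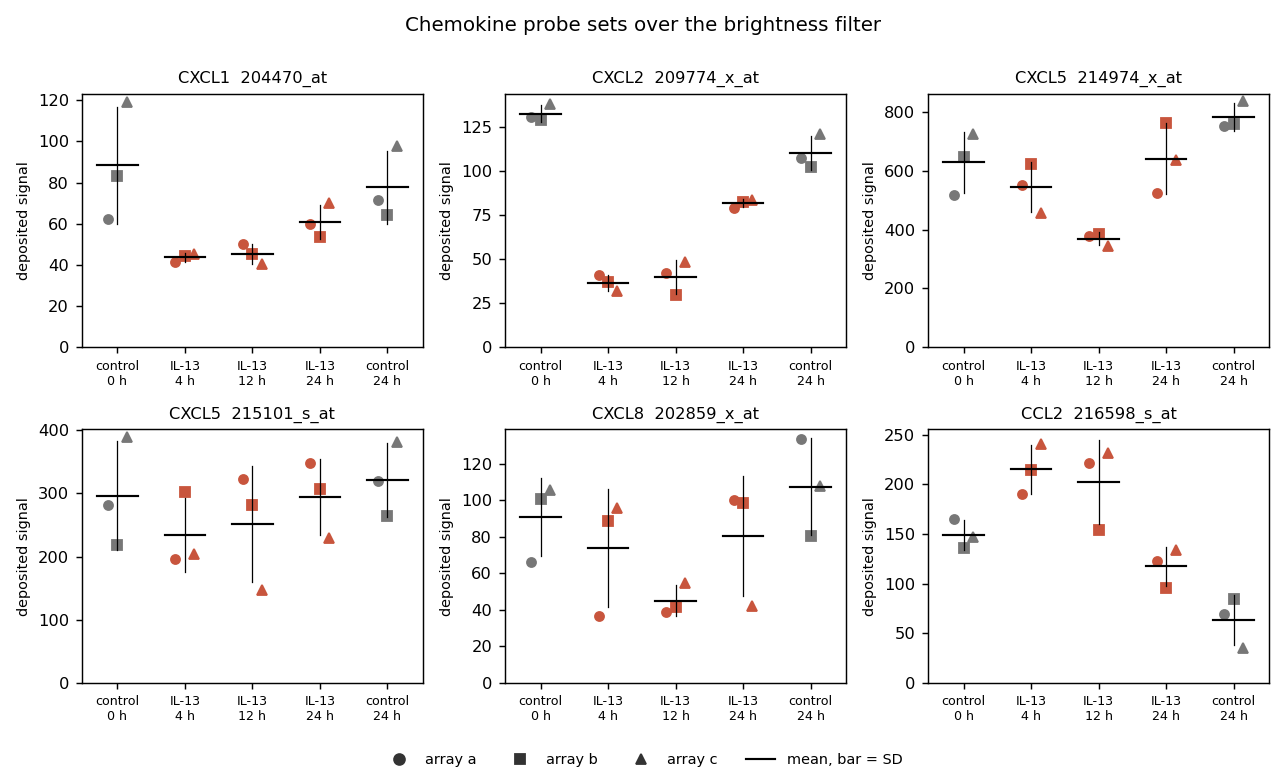
Deposited signal (linear scale, y axis) of the 6 chemokine probe sets over the brightness filter in the 5 groups (x axis), with a point per array, a line at the mean and a bar for the SD (n = 3). CXCL2 is lowest at 4 h and 12 h of IL-13, while CCL2 is highest there and lowest in control 24 h.

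CCL2 was the only tested chemokine past the threshold between IL-13 treated and control cells at 24 h, the only time of IL-13 with a control. It was 1.87-fold higher with IL-13, a difference that rested on individual arrays, while 5 other tested probe sets, all of neutrophil attractants, did not pass. CCL2, the monocyte attractant on chromosome 17 (34255285 to 34257203), had 123, 95.7 and 134 in IL-13 24 h, against 69.1, 84.6 and 35.5 in control 24 h. Every treated array lay above every control array, though the nearest values, 95.7 and 84.6, were close, and control array c was well below its group. In bulk RNA, fewer cells that express a gene and less RNA per cell cannot be told apart. The difference was 0.90 ± 0.21 (limma adjusted p = 0.0165). It was 1 of 6 member probe sets called, against 6.4% of all tested probe sets. The call was lost with no filter (limma adjusted p = 0.0526), with only both groups in the model (adjusted p = 0.0720), and without control 24 h array c (0.61, adjusted p = 0.0763) or without IL-13 24 h array a (0.86, adjusted p = 0.0577) or c (0.81, adjusted p = 0.0855). Over the 18 alternatives tried the difference lay between 0.61 and 1.15, and CCL2 passed in 13 of them.

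Among the neutrophil attractants at 24 h no probe set passed. Of their 8 probe sets 7 stood below 0, beside 50.7% of all, and with median scaling 6 did, beside 36.3% of all. Several of the 8 are of the same gene, so they are not independent. CXCL2 had 79.2, 82.7 and 83.8 in IL-13 24 h, against 108, 103 and 121 in control 24 h. These groups did not overlap, but the difference of -0.23 ± 0.14 did not pass (limma adjusted p = 0.325). CXCL5 214974_x_at had 526, 764 and 635 in IL-13 24 h, against 752, 759 and 836 in control 24 h. Array b of the treated group reached into the control range, and the difference of -0.38 ± 0.14 had a limma adjusted p of 0.119, or 0.0402 (at -0.53) without that array. CXCL8 211506_s_at, under the filter, had 36.1, 49.9 and 42.3 in IL-13 24 h, against 88.1, 57.0 and 76.4 in control 24 h. Its groups did not overlap, and its difference was -0.39 ± 0.20 (limma adjusted p = 0.397 with no filter). CXCL8 202859_x_at stood at -0.26 ± 0.28, CXCL1 at -0.11 ± 0.19, CXCL5 215101_s_at at -0.13 ± 0.24 and CXCL3 at 0.19 ± 0.20, and for these the treated and control arrays overlapped. CXCL5 207852_at, under the filter, had 30.4, 29.1 and 24.6 in IL-13 24 h, against 42.0, 33.8 and 31.3 in control 24 h. Its deposited values did not overlap, but after normalization they did, and its difference was -0.03 ± 0.17 (limma adjusted p = 0.959 with no filter). The sign of CXCL5 215101_s_at turned under another scaling, with values from -0.13 to 0.05.

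In the control cells CCL2 was lower at 24 h than at 0 h, and no other member passed. CCL2 had 69.1, 84.6 and 35.5 in control 24 h, against 165, 136 and 147 in control 0 h. All control 24 h arrays were below all 0 h arrays, and the difference was -1.20 ± 0.21, 2.29-fold lower (limma adjusted p = 0.00352). It passed in 18 of 18 alternatives, with values from -1.49 to -0.85, and was 1 of 6 member probe sets called, against 4.31% of all tested. The same control 24 h arrays serve in the comparison with IL-13 24 h, so the CCL2 differences in both are not independent. CXCL2 stood at -0.32 ± 0.14 (limma adjusted p = 0.196) and CXCL5 214974_x_at at 0.41 ± 0.14 (adjusted p = 0.112). Neither passed, although in both the 24 h and 0 h arrays did not overlap. CXCL8 211506_s_at had 88.1, 57.0 and 76.4 in control 24 h, against 54.8, 37.9 and 31.7 in control 0 h, a difference of 0.43 ± 0.20 (limma adjusted p = 0.365 with no filter).

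With IL-13, CCL2 averaged 149 ± 15.1 in control 0 h, 215 ± 25.03 at 4 h, 203 ± 42.4 at 12 h and 118 ± 19.6 at 24 h (SD, n = 3). The 3 arrays at 4 h had 190, 215 and 241, all above the 0 h arrays, but the difference of 0.48 ± 0.21 did not pass (limma adjusted p = 0.422). At 12 h the arrays had 222, 154 and 232, and array b lay within the 0 h range. That difference was 0.40 ± 0.21 (limma adjusted p = 0.350). The IL-13 24 h arrays were all below the 0 h arrays and all below the 12 h arrays, with differences of -0.29 ± 0.21 (limma adjusted p = 0.488) and -0.69 ± 0.21 (adjusted p = 0.0643). The second of these passed in 6 of 18 alternatives, between -0.86 and -0.55. Ordered by mean signal the groups ran IL-13 4 h, IL-13 12 h, control 0 h, IL-13 24 h and control 24 h, and of neighbours in that order only the last pair differed past the threshold.

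At 4 h of IL-13 the neutrophil attractant CXCL2 fell, and no other member passed. CXCL2 had 41.1, 37.1 and 31.9 in IL-13 4 h, against 131, 129 and 138 in control 0 h. The treated arrays were all far below the control arrays, and both groups were tight. The difference was -1.44 ± 0.14, 2.71-fold lower (limma adjusted p = 2.9e-05), and it passed in 18 of 18 alternatives, from -1.83 to -0.99. It was 1 of 6 member probe sets called, against 0.99% of all tested. CXCL1, CXCL2 and CXCL3 are close relatives in sequence, so their probe sets may share signal.

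CXCL1, also called GRO-alpha, had 41.2, 44.5 and 45.4 in IL-13 4 h, against 62.5, 83.3 and 119 in control 0 h. The groups did not overlap, and the control arrays spread widely. The difference of -0.75 ± 0.19 did not pass (limma adjusted p = 0.0787, or 0.189 with no filter). It passed in 2 of 18 alternatives, with array weights (adjusted p = 0.0355) and without control 0 h array a (adjusted p = 0.0460). CXCL1 was over the filter only through its brighter groups, with a mean log2 of 6.22 without the control 0 h arrays against the filter's 6.33. CXCL3, which sits under the filter, had 6.21, 16.6 and 6.47 in IL-13 4 h, against 34.2, 35.8 and 21.9 in control 0 h. Its groups did not overlap either, and its difference was -0.82 ± 0.20 (limma adjusted p = 0.128 with no filter).

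CXCL8 and CXCL5 had smaller differences at 4 h. CXCL8, also known as interleukin-8, had 24.0, 24.6 and 25.5 on 211506_s_at in IL-13 4 h, against 54.8, 37.9 and 31.7 in control 0 h. The groups were apart, with a difference of -0.49 ± 0.20 (limma adjusted p = 0.569 with no filter). On 202859_x_at CXCL8 had 36.5, 88.7 and 96.0 in IL-13 4 h, against 66.4, 101 and 106 in control 0 h. Those groups overlapped, with array a alone low, and the difference was -0.31 ± 0.28 (limma adjusted p = 0.780). The CXCL5 probe sets stood at -0.18 ± 0.14 (214974_x_at), -0.29 ± 0.24 (215101_s_at) and 0.31 ± 0.17 (207852_at), and none passed.

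At 12 h of IL-13 CXCL2, and 1 of the 3 probe sets of CXCL5, were lower than in control 0 h. CXCL1 also passed, but it was over the filter only through its brighter groups, with a mean log2 of 6.22 without the control 0 h arrays against the filter's 6.33. With CXCL1, 3 of 6 member probe sets were called, against 3.96% of all tested. All 8 probe sets of the 5 neutrophil attractants stood below 0, from -1.38 to -0.09 with a median of -0.77, beside 48.6% of all probe sets below 0 and a median over all of 0.01. Several of the 8 are of the same gene, and those of CXCL1, CXCL2 and CXCL3 may share signal, so they are not independent. With scaling on the tested median CXCL5 207852_at stood at only -0.003. CXCL2 had 42.3, 29.6 and 48.4 in IL-13 12 h, against 131, 129 and 138 in control 0 h. All treated arrays were again below all control arrays, and the difference was -1.38 ± 0.14, 2.60-fold lower (limma adjusted p = 2.7e-05, 18 of 18 alternatives). CXCL1 had 50.2, 45.1 and 40.6 in IL-13 12 h, against 62.5, 83.3 and 119 in control 0 h. The groups were apart, and the difference of -0.74 ± 0.19 (limma adjusted p = 0.0365) passed in 10 of 18 alternatives. It was lost with no filter (adjusted p = 0.0904), with scaling on the tested median (adjusted p = 0.0592), with only both groups in the model (adjusted p = 0.0729), and without control 0 h array b or c or any one of the IL-13 12 h arrays.

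CXCL5, known as epithelial neutrophil activator, was lower on 1 of its 3 probe sets. On 214974_x_at it had 377, 385 and 343 in IL-13 12 h, against 518, 645 and 724 in control 0 h. The groups did not overlap, and the difference was -0.69 ± 0.14, 1.62-fold lower (limma adjusted p = 0.00962, 15 of 17 alternatives). The call was lost without control 0 h array c (adjusted p = 0.0564) or IL-13 12 h array c (adjusted p = 0.0505). On 215101_s_at CXCL5 had 324, 282 and 148 in IL-13 12 h, against 281, 219 and 389 in control 0 h. These groups overlapped (-0.25 ± 0.24, limma adjusted p = 0.652), as did those of 207852_at, at 26.5, 26.5 and 23.8 in IL-13 12 h against 27.8, 22.6 and 29.3 in control 0 h (-0.09 ± 0.17). The 3 CXCL5 probe sets therefore disagree on whether the gene passed at 12 h. In the fits by gene 215101_s_at stands for CXCL5, and with these included it passed in 0 of 19 alternatives.

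At 12 h CXCL8 passed on 211506_s_at with no filter, while CXCL3 did not pass. CXCL8 had 7.45, 24.8 and 11.3 on 211506_s_at in IL-13 12 h, against 54.8, 37.9 and 31.7 in control 0 h. The groups were apart, and with no filter the difference of -0.91 ± 0.20 passed (limma adjusted p = 0.0425), where 1.35% of 22215 probe sets did. With each of the 6 compared arrays left out in turn it passed in 1 of 6 fits, with values from -1.13 to -0.77. On 202859_x_at CXCL8 had 38.6, 41.7 and 54.9 in IL-13 12 h, against 66.4, 101 and 106 in control 0 h. The groups did not overlap, but the difference of -0.79 ± 0.28 did not pass (limma adjusted p = 0.128, or 0.0411 with only both groups in the model). CXCL3 had 12.2, 10.2 and 7.86 in IL-13 12 h, against 34.2, 35.8 and 21.9 in control 0 h. Its groups were apart and its difference of -0.81 ± 0.20 missed the threshold (limma adjusted p = 0.0606 with no filter).

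**Figure D3:**
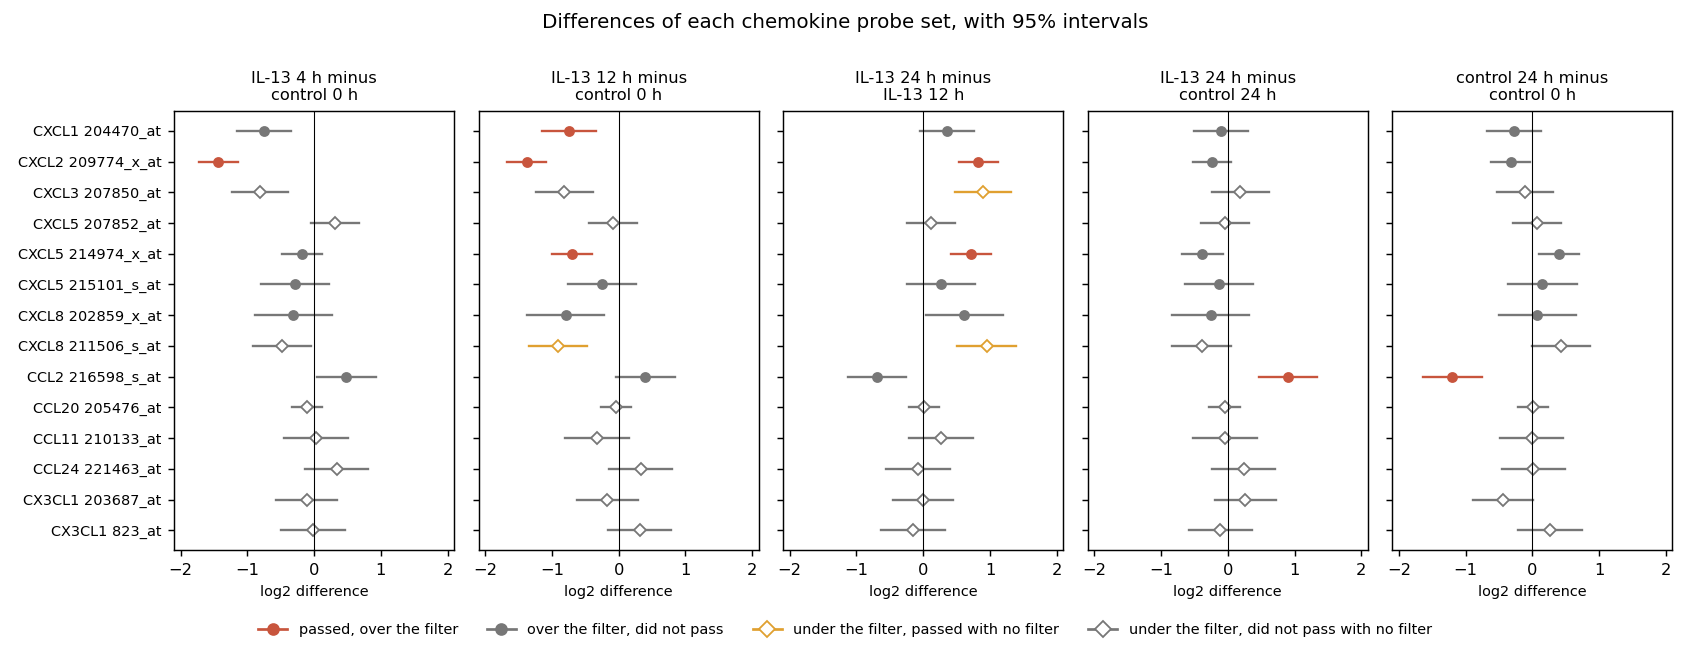
Log2 differences with 95% intervals (x axis) of the 14 chemokine probe sets in the comparisons of the time course. CXCL2 lies at -1.44 and -1.38 at 4 h and 12 h of IL-13 against control 0 h, and CCL2 at 0.90 in IL-13 24 h against control 24 h.

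Between 4 h and 12 h of IL-13 no member passed. This comparison had 0 calls among 11107 probe sets (0% called, limma), with 1154 at an unadjusted p under 0.05, and 1 of the 6 members was among these. That member was CXCL5 214974_x_at, which had 377, 385 and 343 at 12 h, against 552, 624 and 455 at 4 h. The arrays at 12 h were all lower, with a difference of -0.51 ± 0.14 (limma adjusted p = 0.165). CXCL2 stood at 0.06 ± 0.14, with a 95% interval of -0.23 to 0.35, and CXCL1 at 0.01 ± 0.19, with an interval of -0.39 to 0.42. CCL2 stood at -0.08 ± 0.21.

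Between 12 h and 24 h of IL-13 the neutrophil attractant CXCL2 rose, and so did CXCL5 on 214974_x_at alone. CXCL2 and CXCL5 214974_x_at were the ones called, 2 of 6 member probe sets, against 5.02% of all tested. All 8 probe sets of the 5 neutrophil attractants stood above 0, from 0.12 to 0.95 with a median of 0.67, beside 48.9% of all probe sets. The same IL-13 12 h arrays gave the values below 0 against control 0 h, so these counts are not independent. Nor are the 8 probe sets, since several are of the same gene. CXCL2 had 79.2, 82.7 and 83.8 at 24 h, against 42.3, 29.6 and 48.4 at 12 h. Every array at 24 h was higher, with a difference of 0.82 ± 0.14, 1.77-fold (limma adjusted p = 0.00199, 18 of 18 alternatives). CXCL5 214974_x_at had 526, 764 and 635 at 24 h, against 377, 385 and 343 at 12 h. Its groups were also apart, with a difference of 0.72 ± 0.14, 1.65-fold (limma adjusted p = 0.00632, 17 of 17 alternatives). The other CXCL5 probe sets did not pass, with 215101_s_at at 0.27 ± 0.24 (adjusted p = 0.599) and 207852_at at 0.12 ± 0.17 (adjusted p = 0.845 with no filter). In the fits by gene 215101_s_at stands for CXCL5, and with these included it passed in 0 of 19 alternatives.

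With no filter 4 of 14 member probe sets passed in that comparison, against 1.66% of all. The additional probe sets were CXCL3 and CXCL8 211506_s_at. CXCL3 had 46.3, 25.5 and 30.7 at 24 h, against 12.2, 10.2 and 7.86 at 12 h. CXCL8 had 36.1, 49.9 and 42.3 at 24 h, against 7.45, 24.8 and 11.3 at 12 h. In both the 24 h arrays were all higher, with differences of 0.90 ± 0.20 (limma adjusted p = 0.0344) for CXCL3 and 0.95 ± 0.20 (adjusted p = 0.0322) for CXCL8. When each compared array was left out in turn, each passed in 1 of 6 fits, CXCL3 between 0.71 and 1.06 and CXCL8 between 0.81 and 1.17. CXCL8 202859_x_at had 100.1, 98.5 and 42.3 at 24 h, and array c lay within the 12 h range (0.62 ± 0.28, limma adjusted p = 0.224). CXCL1 stood at 0.36 ± 0.19 (adjusted p = 0.312).

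At 24 h of IL-13, CXCL2 was lower than at 0 h, and no other member passed. CXCL2 averaged 81.9 ± 2.39 in IL-13 24 h and 133 ± 4.95 in control 0 h (SD, n = 3), with no overlap. The difference was -0.56 ± 0.14, 1.47-fold lower (limma adjusted p = 0.0216), 1 of 6 member probe sets called, against 6.2% of all tested. It passed in 12 of 18 alternatives and was lost when any 1 of the 6 arrays was left out, with values from -0.66 to -0.42 over the alternatives. CXCL5 214974_x_at stood at 0.03 ± 0.14, with a 95% interval of -0.27 to 0.33, CXCL8 211506_s_at at 0.04 ± 0.20 and CXCL1 at -0.38 ± 0.19 (limma adjusted p = 0.288). By mean signal, CXCL2 ran control 0 h, control 24 h, IL-13 24 h, IL-13 12 h and IL-13 4 h, and of neighbours in that order only IL-13 24 h and IL-13 12 h differed past the threshold.

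CCL20, the eotaxins and CX3CL1 were dim, and 0 of their 5 probe sets passed in any comparison (limma with no filter). Of all 22215 probe sets, 0 to 485 passed per comparison, so a count of 0 is near the background. At an unadjusted p under 0.05 there were also 0 of 5, beside 7.84% to 15.2% of all. CCL20 gave 2.29 to 9.76 over the 15 arrays, below the 25th percentile of all values, 19.7. CCL20 lies on chromosome 2 (227813842 to 227817556). CCL11, an eotaxin on chromosome 17 (34285742 to 34288334), gave 12.4 to 49.9, and had 20.8, 37.9 and 30.2 in IL-13 24 h, against 49.9, 35.7 and 27.7 in control 24 h. The groups overlapped, and the difference of -0.04 ± 0.22 had a 95% interval of -0.52 to 0.43. CCL24, an eotaxin on chromosome 7 (75810825 to 75823372), had 21.95, 12.0 and 12.0 in IL-13 24 h, against 12.8, 10.2 and 13.5 in control 24 h. Its groups overlapped too, with a difference of 0.24 ± 0.22 and an interval of -0.24 to 0.71. At 4 h and 12 h CCL24 stood at 0.34 ± 0.22 and 0.33 ± 0.22 against control 0 h (limma adjusted p = 0.788 and 0.619 with no filter). CX3CL1, on chromosome 16 (57372490 to 57385044), gave 10.8 to 34.5 on 203687_at and 21.9 to 77.4 on 823_at, and its probe sets stood at 0.26 ± 0.21 and -0.11 ± 0.22 in IL-13 24 h against control 24 h. These intervals are on the scale with the pseudocount, which understates change at signals this low.

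**Figure D4:**
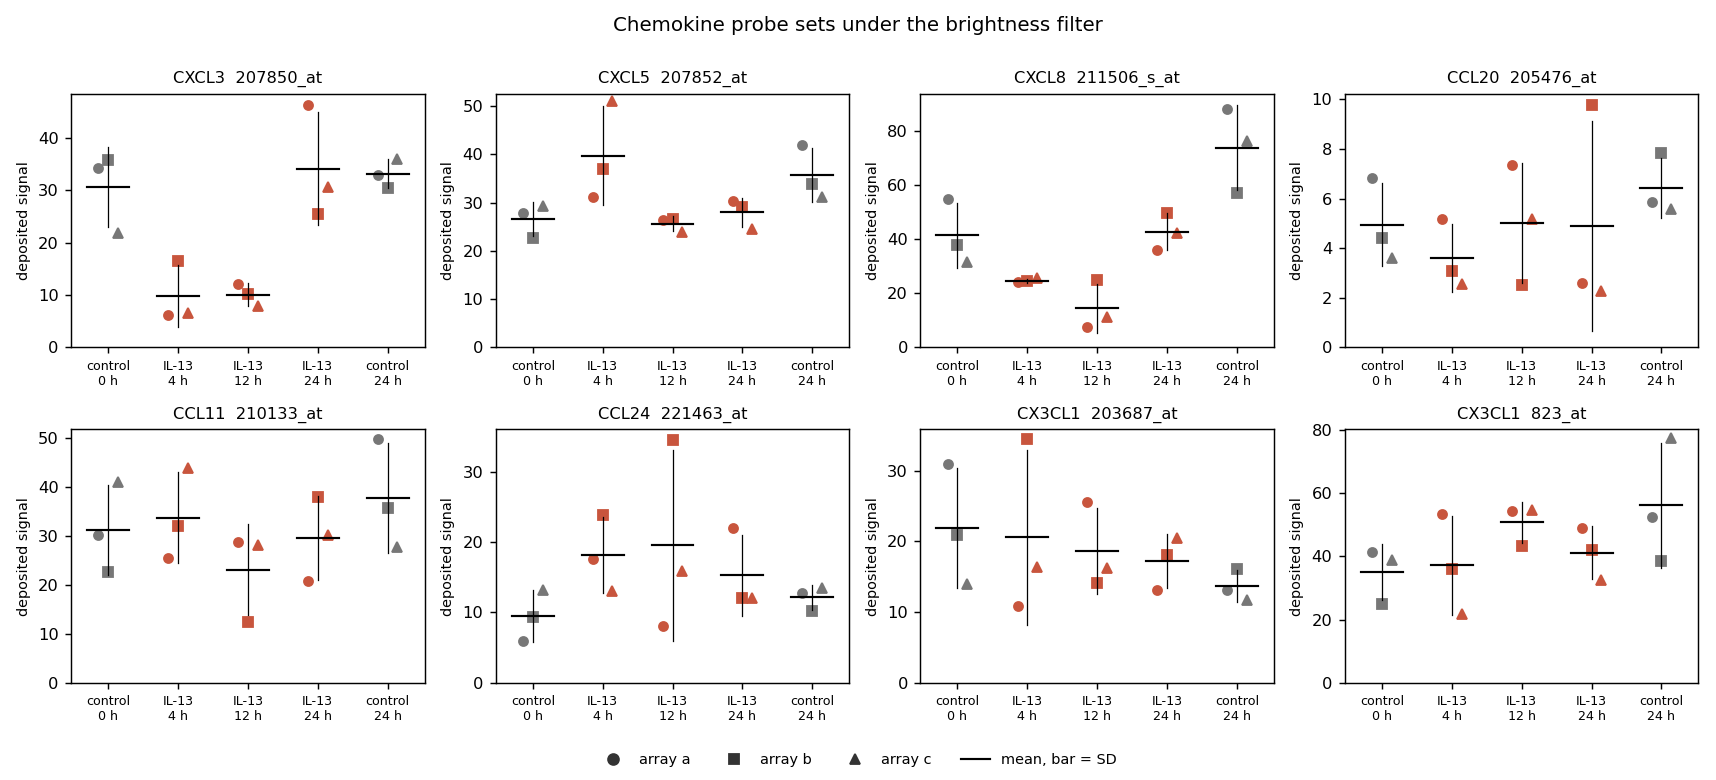
Deposited signal (linear scale, y axis) of the 8 chemokine probe sets under the brightness filter in the 5 groups (x axis), with a point per array, a line at the mean and a bar for the SD (n = 3). CXCL3 and CXCL8 211506_s_at are low at 4 h and 12 h of IL-13, and CCL20 lies under 10 in every array.

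Other chemokines and chemokine receptors gave no calls. Of 31 other chemokine genes, 24 had a probe set of their own and 5 stood over the filter, CXCL9, CXCL10, CXCL12, CCL19 and PF4. Of these, 0 of 5 passed in any of the 7 comparisons (limma), where 0% to 6.4% of all tested did, so a count of 0 is near the background. At an unadjusted p under 0.05 there were 2 of 5 in IL-13 24 h against control 24 h (22.9% of all) and 1 in control 24 h against 0 h (20.1% of all). There were 0 in the other 5 comparisons, where 10.3% to 19.7% of all stood under it. Of 22 receptors and decoys, 3 stood over the filter, CXCR4, CCR2 and ACKR3, and 0 of 3 passed, again near the background. At an unadjusted p under 0.05 there was 1 of 3, in IL-13 24 h against control 24 h, beside 22.9% of all. Among genes that process chemokines, 4 of 7 were tested. Of these the CX3CL1 sheddases ADAM10 and ADAM17 rose between 12 h and 24 h of IL-13 (2 of 4, against 5.02% of all tested), by 0.41 ± 0.10 (limma adjusted p = 0.0231) and 0.47 ± 0.12 (adjusted p = 0.0336). ADAM10 was also 0.41 ± 0.10 above control 0 h in IL-13 24 h (adjusted p = 0.0191), 1 of 4 against 6.2% of all. ADAM10 stood at 0.31 ± 0.10 in control 24 h against 0 h (adjusted p = 0.0809). In IL-13 24 h against control 24 h 0 of 4 passed, against 6.4% of all.

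Of the 15 tested NF-kB subunits and feedback genes, 0 passed (limma) at 4 h or 12 h of IL-13 against control 0 h, where 0.99% and 3.96% of all tested did, so a count of 0 is near the background. At each time 2 of the 15 had an unadjusted p under 0.05, against 10.3% and 17.1% of all. The list's medians were -0.07 and -0.13 beside 0.004 and 0.007 over all lead probe sets. In IL-13 24 h against control 24 h the subunit RELA was lower by 0.69 ± 0.13 (limma adjusted p = 0.00476). The feedback gene TNIP1 was higher by 0.67 ± 0.17 (adjusted p = 0.0286). That made 1 of 15 lower and 1 higher, against 6.4% of all tested called in either direction. In control 24 h against 0 h neither passed, with RELA at 0.46 ± 0.13 (limma adjusted p = 0.0520) and TNIP1 at -0.54 ± 0.17 (adjusted p = 0.0822). Both comparisons hold the control 24 h arrays, so the opposite signs are not independent. RELB, another subunit, was lower by 0.62 ± 0.17 in IL-13 24 h against control 0 h (limma adjusted p = 0.0338), 1 of 15 tested against 6.2% of all. RELB stood at -0.56 ± 0.17 in control 24 h against 0 h (adjusted p = 0.0632). These are mRNA levels and do not measure NF-kB activity.

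The list of AP-1 and C/EBP genes, families that also act at chemokine promoters, held in addition EGR1, a zinc-finger factor of neither family. At 12 h against control 0 h, 4 of its 10 tested genes were lower and 0 higher, against 3.96% of all tested called in either direction, with a list median of -0.33 beside 0.007 over all lead probe sets. FOSL1, an AP-1 subunit, averaged 111 in IL-13 12 h and 230 in control 0 h, and fell by 0.93 ± 0.16 (limma adjusted p = 0.00266). The AP-1 genes ATF3 and JUND fell by 0.49 ± 0.13 and 0.45 ± 0.12, and EGR1 by 0.69 ± 0.17. Between 12 h and 24 h ATF3 rose by 0.83 ± 0.13 (limma adjusted p = 0.00109) and CEBPB by 0.52 ± 0.13 (adjusted p = 0.0228), 2 of 10 against 5.02% of all. At 4 h against control 0 h 0 of 10 passed (limma), where 0.99% of all did, and 4 had an unadjusted p under 0.05, against 10.3% of all, with a median of -0.28 beside 0.004. FOSL1 stood at -0.87 ± 0.16 in IL-13 24 h against control 0 h (limma adjusted p = 0.00326), 1 of 10 against 6.2% of all. In control 24 h against 0 h FOSL1 stood at -0.67 ± 0.16 (adjusted p = 0.0265). FOSL2 passed in both comparisons with control 24 h, which share those arrays. It stood at 0.62 ± 0.17 in IL-13 24 h against control 24 h and -0.80 ± 0.17 in control 24 h against 0 h. JUND stood at -0.47 ± 0.12 in IL-13 24 h against control 24 h. In that comparison 1 of 10 was higher and 1 lower, against 6.4% of all. In control 24 h against 0 h 2 of 10 were lower, against 4.31% of all.

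Factors that act on AU-rich mRNAs, a class that holds several chemokine transcripts, included DUSP1, a phosphatase that shuts off p38 signalling to that machinery. DUSP1 fell by 0.46 ± 0.11 at 4 h against control 0 h (limma adjusted p = 0.0467), 1 of 9 tested against 0.99% of all, and rose by 0.57 ± 0.11 between 12 h and 24 h of IL-13 (adjusted p = 0.00403), again 1 of 9, against 5.02% of all. In IL-13 24 h against control 24 h 3 of 9 were lower, against 6.4% of all called in either direction, the decay factor ZFP36L2 (-0.82 ± 0.12, limma adjusted p = 0.000538), the stabilizing protein ELAVL1 (-0.39 ± 0.09) and HNRNPD (-0.41 ± 0.11). In control 24 h against 0 h, which shares the control 24 h arrays, ZFP36L2 stood at 0.76 ± 0.12 (limma adjusted p = 0.00130), 1 of 9 against 4.31% of all. KHSRP, another decay factor, stood at -0.68 ± 0.15 in IL-13 24 h against 0 h (adjusted p = 0.0113), 1 of 9 against 6.2% of all.

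Other inflammatory genes gave calls for PTGS2 and C3 among 9 tested, 2 of 9 in IL-13 24 h against control 24 h, where 6.4% of all passed. PTGS2, the inducible prostaglandin synthase, averaged 132 in IL-13 24 h and 57.5 in IL-13 12 h, a difference of 1.04 ± 0.17 (limma adjusted p = 0.00172), 1 of 9 against 5.02% of all. PTGS2 stood at -0.61 ± 0.17 in IL-13 24 h against control 24 h (adjusted p = 0.0421). It was higher in both 24 h groups than in control 0 h, by 0.61 in IL-13 24 h and 1.21 in control 24 h. The second was 1 of 9, against 4.31% of all. C3, the central complement component, averaged 217 in IL-13 24 h and 78.8 in control 24 h (1.39 ± 0.26, adjusted p = 0.00441), and stood at 1.09 and 1.81 at 12 h and 24 h of IL-13 against 0 h. Against 0 h, C3 was 1 of 9 at 12 h (3.96% of all), and C3 and PTGS2 were 2 of 9 at 24 h (6.2% of all). In the IL-13 list, CISH and TGM2, known to respond to IL-13, passed as higher in each of the 4 comparisons of IL-13 with a control. They were 2 of 6 tested in each, against 0.99% to 6.4% of all, and stood at 1.03 and 0.52 in IL-13 24 h against control 24 h. The kinase gene JAK1 stood at -0.32 ± 0.08 in control 24 h against 0 h, 1 of 6 against 4.31% of all.

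The genes whose pattern was most like a chemokine's were named by Pearson correlation over the 15 arrays among 9844 probe sets, as a description, since these arrays share their groups. For CXCL2 they were FHL2 (r = 0.93), TRIB3 (r = 0.93) and EREG (r = 0.92). For CXCL1 they were SRRM2 (r = 0.84), FHL2 (r = 0.82) and SIRT7 (r = 0.82). For CCL2 they were PPIF (r = 0.95), PSMC3 (r = 0.93) and VDAC3 (r = 0.92). For CXCL5 215101_s_at the highest values were lower, with USP21 (r = 0.82), ASS1 (r = 0.79) and APBA3 (r = 0.78).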

How the data were processed

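Each deposited value is the signal intensity of a probe set, on a linear scale, and 15 arrays were used. The software that made the deposited intensities was not given in the sources used here, and every array had a mean near 150 once 2% was trimmed from both ends. A constant of 20 was added as pseudocount (the 25th percentile of the signals was 19.7), log2 was taken, and quantile normalization followed because array medians spread over 0.269 log2. Of 22215 probe sets that are not controls, the 11107 with a mean log2 over 6.33, the median, entered the tests, each on its own.

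The fit used limma 3.58.1 (R 4.3.3), with a mean for each of the 5 groups, all 15 arrays and 10 residual degrees of freedom. Moderation used a variance trend, tests were two-sided, p-values were adjusted by Benjamini-Hochberg, and 0.05 was the threshold in all 7 comparisons. The members, gene lists and tests were chosen with earlier results of these data known. All member probe sets are described. Of the lists, genes past the threshold are named, up to 4 per list and comparison, by the lead probe set, the brightest with _x_at kinds taken last. For each member whose lead probe set was over the filter, the 3 most correlated genes are named. Symbols come from the platform annotation, where 19065 probe sets have 1 symbol, 1043 have several and 2107 have none, and only those with 1 were named. RefSeq promoters (GRCh38.p14) were matched by symbol and aligned with Biopython 1.88. The fit was tested on simulated data. Precision is limited by 3 arrays per group. Alternatives changed the scaling, pseudocount, filter, probe set rule and model, added the replicate letter, or left out each array.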

Additional observations from a re-analysis of the deposited data

How the results depend on the processing

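The count of member probe sets called was 1 in IL-13 24 h against control 24 h, and against control 0 h it was 1 at 4 h, 3 at 12 h and 1 at 24 h of IL-13 and 1 in control 24 h. It was 0 between 4 h and 12 h and 2 between 12 h and 24 h. A filter at the 75th percentile, which leaves only the 2 brighter CXCL5 probe sets in the test, gave 0, 0, 1, 0, 0 and, between 12 h and 24 h, 1. No filter gave 0 in IL-13 24 h against control 24 h and 4 between 12 h and 24 h. Only the compared groups gave 0 in IL-13 24 h against control 24 h, array weights gave 2 at 4 h, and the brightest probe set or the mean of probe sets per gene gave 1 between 12 h and 24 h. With each array left out the counts ran from 0 to 2 in IL-13 24 h against control 24 h, from 1 to 2 at 4 h, from 1 to 3 at 12 h and from 2 to 3 between 12 h and 24 h, stayed at 1 in control 24 h against 0 h, and were 0 in each fit of IL-13 24 h against 0 h. Deviations of arrays with the same replicate letter correlated between -0.21 and 0.10, so the letters were not taken to pair samples. With the letter as a block, the counts were 1, 1, 3, 1, 1, 0 and 2, in the order of the first sentences. Of 42 differences of member probe sets over the filter, 15 turned their sign under at least 1 alternative. Of 56 of those under it, for which only the scalings were varied, 10 did, and in each set 0 of those that turned were called. Leaving out single arrays with no filter was chosen after seeing the data. Over all probe sets, 711 calls in IL-13 24 h against control 24 h became 1446 with median scaling, which moves the median of the tested probe sets by 0.13, 433 without the filter, 409 by the mean of probe sets, 307 with only the compared groups and 285 to 773 with an array left out. The 479 calls in control 24 h against 0 h became 1358 with median scaling (median -0.15), 293 with no filter, 249 and 251 per gene and 196 to 428 with an array left out. Against control 0 h, the 440 calls at 12 h became 285 and 281 per gene and 193 to 302 with an array left out, the 110 at 4 h became 49 to 75, and the 689 at 24 h became 448 with the mean of probe sets and 318 to 534. The 558 between 12 h and 24 h became 368 with no filter and 257 to 456 with an array left out. Dim probe sets limit what can be said of CCL20, CCL11, CCL24 and CX3CL1.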
